A study of Mus musculus with 6 samples.

Results

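The Mediator complex was followed through 33 genes: 26 subunits of its core and 7 of its kinase module. A gene was represented by the probe set annotated to its symbol alone that had the highest mean over the 6 arrays, and all 33 were measured, among 18193 genes in all. RNA of the hippocampus was hybridized to 6 Affymetrix mouse arrays, each labelled with 1 individual, although the labelling protocol speaks of pools and the extraction protocol names whole brain and other organs but not hippocampus. The first group held 3 Dp(11)17/+ mice, heterozygous for a chromosome carrying an engineered duplication of a segment of chromosome 11, and the second held 3 +/+ mice, the wild type without it. All 6 had the inbred background C57BL/6-Tyr c-Brd, were labelled male and were 11 to 14 weeks old. The line models Potocki-Lupski syndrome, a human developmental disorder, as its title states. The duplication is present in every cell of the animal, so the hippocampus is compared after development with the extra copy. Of the 33 genes, Med9 alone lies in the segment, taken here as the genes from Cops3 to Rnf112. By the genotype, Med9 has 3 copies in Dp(11)17/+ mice against 2 copies in +/+ mice. Copy number itself was not measured, and the labels do not give the bounds of the segment.

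Mediator is a large multiprotein coactivator that carries signals from transcription factors bound at enhancers to RNA polymerase II at promoters. Its head and middle modules contact the polymerase, its tail receives many activators, and the subunit encoded by Med14 runs through all of them as a backbone. A separable kinase module, built from a cyclin-dependent kinase, cyclin C and the large subunits of the Med12 and Med13 families, binds the core reversibly and controls its contact with the polymerase. Variants of several subunits, MED12 and MED13L among them, cause neurodevelopmental disorders in humans. Med9 is a small subunit of the middle module, where in yeast it packs against Med4.

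The arrays gave log2 values of probe sets, so values are compared between mice for a given probe set and not between genes. Some mice stood apart before any Mediator gene was examined. Dp(11)17/+ replicate 1, labelled male, had a log2 value of 9.13 for Xist, the RNA of the inactive X chromosome, against 3.06 to 3.69 in the other 5 mice, and 2.48 for the Y-linked Eif2s3y against 5.41 to 6.01 in them. Both values conflict with the male label, so the Dp(11)17/+ group may hold mice of both sexes. Markers of CA1 pyramidal cells, which define the hippocampus, were measured for 5 of 6 listed genes, all with mean log2 values of at least 6. Their mean lay at 7.44, 8.72 and 6.38 in Dp(11)17/+ replicates 1, 2 and 3, against 8.22 to 8.45 in +/+ mice. Striatal markers, 8 of 10 measured, had means of 7.07, 5.53 and 7.89 in the same Dp(11)17/+ mice, against 5.53 to 6.29 in +/+ mice. For 8 of 8 markers of thalamus and habenula the means were 5.25, 5.20 and 7.44, against 5.04 to 5.50. CA1 markers were thus lowest, and striatal and thalamic markers highest, in Dp(11)17/+ replicate 3, and the part of tissue makeup in the results was not tested. In +/+ replicate 3, 211 of 15487 probe sets with a mean of 5 or more lay at least 0.8 below all other mice, a count of 0 to 111 elsewhere. In bulk tissue, fewer cells of a type and less RNA in each cell cannot be told apart.

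Start regions of 3 subunits are shown so that the duplicated gene can be read beside a core partner on another chromosome and a subunit on chromosome 11 outside the segment. The sequences are those of RefSeq on the build GRCm38.p6, each the 250 bases before the transcription start, read 5′ to 3′ on the gene's strand. Capitals mark GC boxes (GGGCGG, read by the Sp1 family) and CCAAT boxes (CCAAT, read by NF-Y) on either strand.
Med9, plus strand, chr11:59947964-59948213: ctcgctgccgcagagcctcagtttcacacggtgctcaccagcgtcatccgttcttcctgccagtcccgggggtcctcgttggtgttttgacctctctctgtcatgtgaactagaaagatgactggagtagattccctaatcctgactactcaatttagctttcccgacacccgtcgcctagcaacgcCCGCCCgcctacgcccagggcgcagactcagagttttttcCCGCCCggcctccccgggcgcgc
Med4, plus strand, chr14:73509799-73510048: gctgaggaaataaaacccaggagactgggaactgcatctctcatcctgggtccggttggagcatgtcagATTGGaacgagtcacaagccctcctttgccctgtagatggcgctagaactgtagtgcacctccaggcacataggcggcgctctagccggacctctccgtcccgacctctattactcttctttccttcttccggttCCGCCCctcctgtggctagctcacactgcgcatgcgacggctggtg
Med11, plus strand, chr11:70451668-70451917: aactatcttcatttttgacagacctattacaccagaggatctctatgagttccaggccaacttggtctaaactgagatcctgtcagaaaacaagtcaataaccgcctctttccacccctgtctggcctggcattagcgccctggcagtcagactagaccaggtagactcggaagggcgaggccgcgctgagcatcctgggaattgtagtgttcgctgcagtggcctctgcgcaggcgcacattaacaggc
The Med9 window held 2 GC boxes and 0 CCAAT boxes, that of Med4 held 1 of each, and that of Med11 held neither. No overlap between motifs was found in these windows. A TATA box, searched as TATAAA on both strands, was in none of them. The Med9 window had 20 CpG pairs, against a median of 6 over all 32851 windows of the same length and 15 over the 32 windows of the Mediator genes. Windows were held for 28 of the 33 genes. By windows, a GC box was in 20 of the 32 (62.5%), against 32.7% of all windows. A CCAAT box was in 12 (37.5%), against 33.8%, and a TATA box in 3 (9.38%), against 12.4%. The 32851 windows covered 27025 genes and were not selected for protein-coding ones. Whether the contrasts are particular to Mediator genes was not tested. These matches describe letters and say nothing of what binds there.

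Med9 had the smallest unadjusted p and the highest log2 fold change of the 33 Mediator genes. Its brighter probe set had log2 values of 6.92, 7.25 and 7.11 in Dp(11)17/+ replicates 1, 2 and 3, against 6.39, 6.71 and 6.53 in +/+ replicates 1, 2 and 3. Every Dp(11)17/+ mouse lay above every +/+ mouse. The means were 7.10 ± 0.17 in Dp(11)17/+ and 6.54 ± 0.16 in +/+ mice (SD, n = 3 each), a log2 fold change of 0.55 (SE 0.12), or 1.47-fold. Its 95% interval, 0.26 to 0.84, held the 0.58 that a 3 to 2 copy ratio corresponds to. By limma the unadjusted p of Med9 was 0.00272 and its adjusted p over all 45037 probe sets was 0.994. No probe set passed that adjustment (0 of 45037, or 0%), while 1272 (2.82%) had an unadjusted p under 0.05. Exact permutation of the genotypes, two-sided with 20 arrangements, returned p = 0.1, and 3 mice against 3 cannot give less.

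The dimmer probe set of Med9 had the same direction and a smaller difference. Its log2 values were 5.94, 5.96 and 5.94 in Dp(11)17/+ mice, against 5.50, 5.85 and 5.61 in +/+ mice. The groups again did not overlap, and the Dp(11)17/+ values were nearly equal, with an SD of 0.01 against 0.18 in +/+ mice (n = 3 each). The log2 fold change was 0.29 (SE 0.10), or 1.22-fold, with a 95% interval of 0.04 to 0.54 that lay below 0.58. The positions of the 2 probe sets on the transcript were not analysed here, and whether they register a change to the same extent was not tested. With the mean of both probe sets, the log2 fold change was 0.42.

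**Figure D1:**
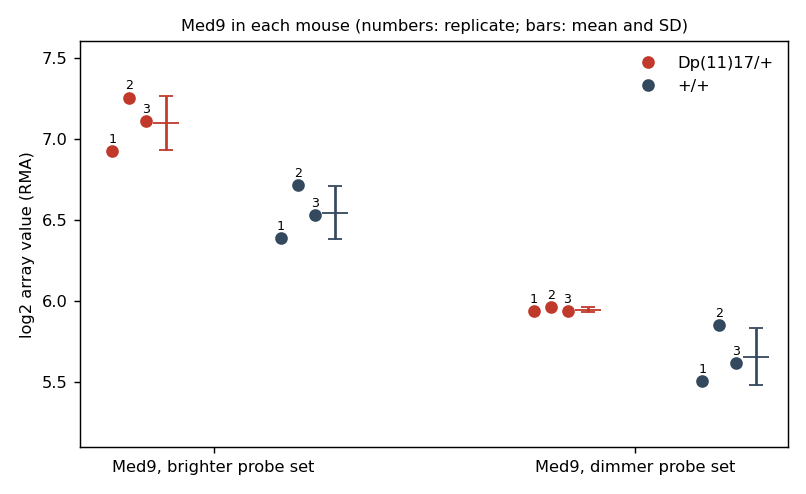
Log2 array values of the brighter and the dimmer Med9 probe set in each mouse, Dp(11)17/+ in red and +/+ in blue-grey, with the replicate number above each point and the mean and SD beside it. All 3 Dp(11)17/+ mice lie above all 3 +/+ mice in both probe sets, with means of 7.10 and 6.54 in the brighter one.

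The difference of Med9 kept its direction when any 1 of the mice that stood apart was left out. Dp(11)17/+ replicates 1 and 3 both had lower CA1 and higher striatal marker means than all +/+ mice. A fit without 1 of them kept the other, and the part of tissue makeup in the difference was not tested. Without Dp(11)17/+ replicate 1, the mouse with Xist, the log2 fold change was 0.64, and without Dp(11)17/+ replicate 3, the mouse with the strongest regional markers, it was 0.54. Without +/+ replicate 3 it was also 0.54. Against all +/+ mice, Dp(11)17/+ replicate 2 alone gave 0.71, with no test. With the difference between striatal and CA1 markers of each array as a covariate it was 0.60.

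Within the segment, taken as the genes from Cops3 to Rnf112, Med9 stood in the upper part of the range. Of 33 measured genes, 20 were bright, with a mean of at least 6. Med9 ranked 6 of 20 among these by log2 fold change, and their median was 0.48. Of the 20, 19 had higher means in Dp(11)17/+ mice, against 41.7% of all genes. The exception was Cops3, the first gene of the segment as taken here, at -0.17, and its copy number was not measured. Nt5m, the nearest bright gene before Med9, was at 0.40. The genes directly on either side of Med9 differed from it and from each other. Med9os is a non-coding gene that lies 66 bases from Med9 in the GRCm38.p6 gene table. It had log2 values of 2.60, 2.89 and 2.81 in Dp(11)17/+ mice, against 2.56, 2.92 and 2.81 in +/+ mice, at the dim end of the arrays. Its log2 fold change was 0.00 (SE 0.13). Rasd1, a Ras-like gene induced by dexamethasone, overlaps the end of Med9 by 126 bases in that table. It had 6.51, 8.15 and 7.03 in Dp(11)17/+ mice, against 7.16, 6.72 and 6.75 in +/+ mice, so its groups overlapped (log2 fold change 0.35, SE 0.38). Among Dp(11)17/+ mice its order was that of Med9, with replicate 2 highest and replicate 1 lowest. Among +/+ mice the order was the reverse of that of Med9.

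**Figure D2:**
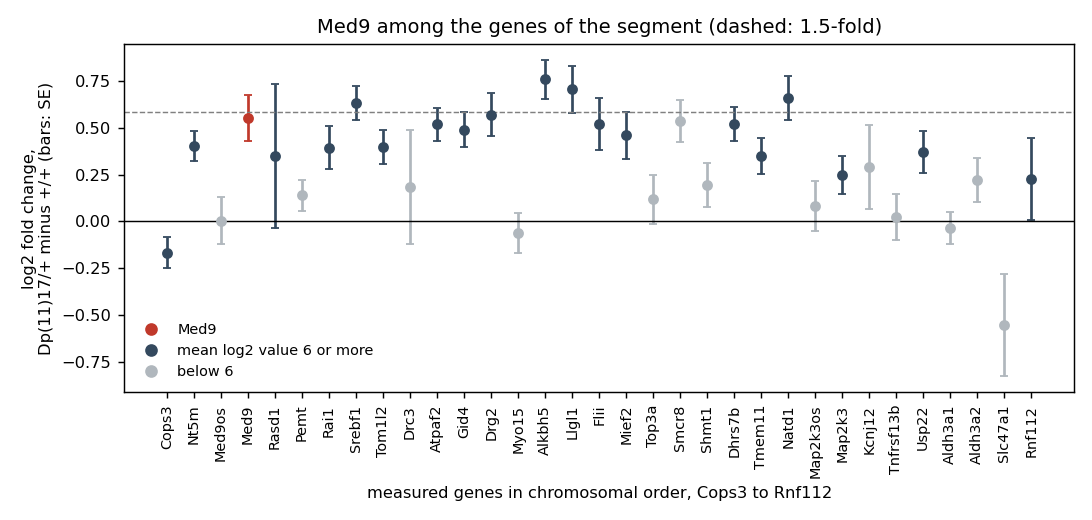
Log2 fold change, Dp(11)17/+ minus +/+, with its SE, of the 33 measured genes between Cops3 and Rnf112 in chromosomal order. Med9 is red, genes with a mean of at least 6 are dark and dimmer ones light, and the dashed line marks 1.5-fold. Med9 at 0.55 lies near the line, and Med9os beside it at 0.00.

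None of the other 32 subunits passed the unadjusted threshold. With unadjusted p under 0.05, 1 of the 33 genes passed, Med9 itself, or 3.03%, against 3.17% of all genes (576 of 18193), so the share was near the background. Med9 was higher, as 1.15% of all genes were at that threshold, and 0 members were lower, against 2.01% of all genes. The log2 fold changes of the other 32 ran from -0.25 to 0.42, with a median of -0.07, against -0.02 over all genes. The means of 25 were lower and those of 7 higher in Dp(11)17/+ mice, so that 78.1% were lower, against 58.3% of all genes, while 41.7% of all genes were higher. The 95% interval held 0 for all 32 genes. It lay below 0.58 for 31 of the 32, the exception being Med13l, and for 30 it lay within 1.5-fold in both directions, the other exception being Med27. Of the 32, 25 were bright, with a mean of at least 6, and 18 of these were lower, where 59.1% of all bright genes were. The 7 dimmer ones all had lower means, between -0.22 and -0.00. The count of lower means depended on the mice compared. Without +/+ replicate 1, 13 of the 33 genes were higher in place of 8, and with the regional marker score as a covariate 15 were.

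**Figure D3:**
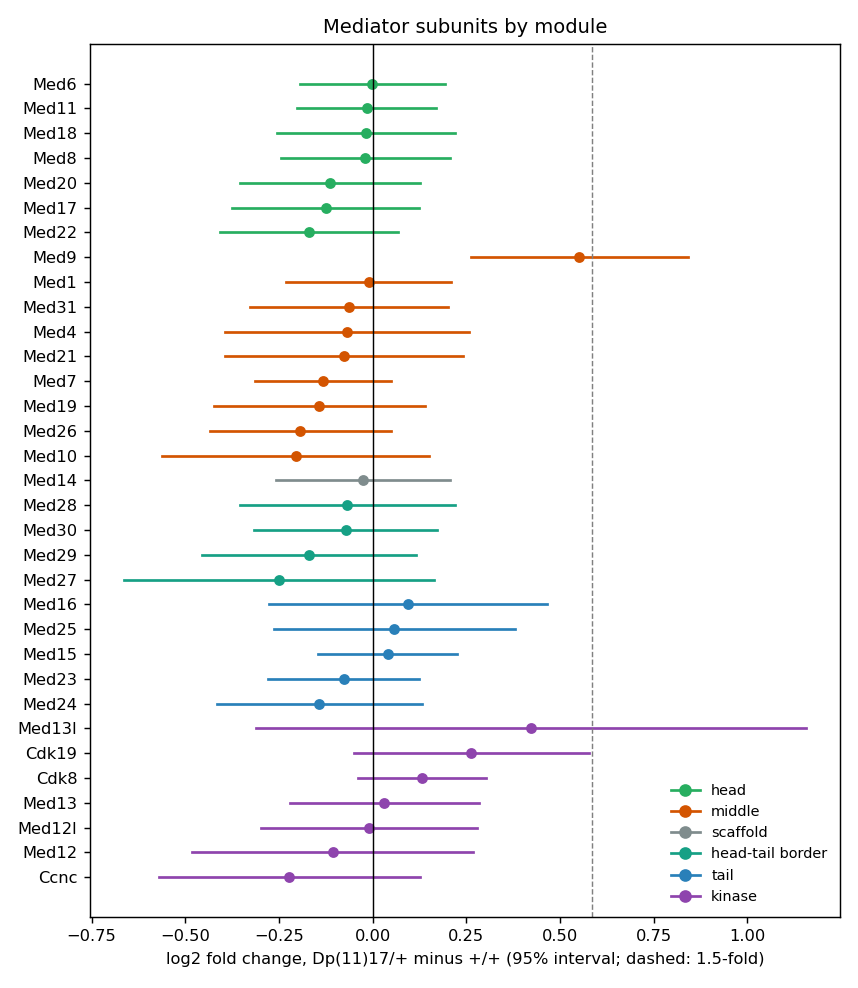
Log2 fold change, Dp(11)17/+ minus +/+, and 95% interval of the 33 Mediator genes, grouped by module, with 0 as a solid line and 1.5-fold as a dashed line. The interval of Med9 (0.26 to 0.84) lies above 0, and those of the other 32 genes hold 0.

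Med9 was set beside the 26 genes on other chromosomes within each mouse. Its value minus its +/+ mean was 0.38, 0.71 and 0.57 in Dp(11)17/+ replicates 1, 2 and 3. The mean of the 26 genes, taken in the same way, was -0.05, -0.01 and -0.06 in these mice. Med9 thus exceeded that mean by 0.43, 0.72 and 0.63, against -0.17, 0.12 and 0.05 in +/+ replicates 1, 2 and 3. The groups did not overlap, and the means of this excess were 0.59 ± 0.15 in Dp(11)17/+ and 0.00 ± 0.15 in +/+ mice (SD, n = 3 each). The +/+ mean is 0 by construction. Single genes of the 26 came near or above Med9 in some mice. In Dp(11)17/+ replicate 1, Med13l lay 0.49 and Med16 0.38 above their +/+ means. In Dp(11)17/+ replicate 3, Cdk19 lay 0.52 above its own, below the 0.57 of Med9. The +/+ mean of Med13l was lowered by +/+ replicate 3, at -0.80 from it, and +/+ replicate 1 lay 0.48 above it. No test was made of the excess of Med9, as the genes were chosen with results of these data known.

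Chromosome 11 also carries 6 subunits outside the segment: Med7 on its centromeric side, and Med11, Med31, Med13, Med1 and Med24 on its telomeric side. Between them and the segment lie 151 protein-coding genes for Med11, the nearest, and 627 for Med24, the farthest. Their log2 fold changes ran from -0.14 to 0.03 with a median of -0.04, against -0.07 for the 26 genes on other chromosomes. All 6 intervals lay below 0.58. Med7, a subunit that forms the hinge of the middle module with Med21, had log2 values of 6.22, 6.33 and 6.32 in Dp(11)17/+ mice, against 6.43, 6.38 and 6.46 in +/+ mice. Its groups did not overlap, but the difference was small, -0.13 (SE 0.08), with an unadjusted p of 0.129 by limma. Among the 33 genes the groups did not overlap for 4 (12.1%), against 8.29% of all genes: Med9 and Cdk8 with all Dp(11)17/+ mice above (2.7% of all genes) and Med7 and Med26 with all below (5.59%). Med11, a head subunit that pairs with Med22, had 5.72, 5.69 and 5.69 in Dp(11)17/+ mice, against 5.67, 5.80 and 5.67 in +/+ mice (log2 fold change -0.02). Med31, one of the most conserved subunits, had 7.18, 7.13 and 7.32, against 7.42, 7.32 and 7.08 in +/+ mice (-0.06). Med1, the main docking subunit of nuclear receptors, had 6.76, 6.99 and 6.87, against 6.85, 6.82 and 6.98 in +/+ mice (-0.01). The values of these 3 genes overlapped between the genotypes. Med24, a tail subunit, had 6.75, 6.88 and 6.79, against 6.77, 6.91 and 7.17 in +/+ mice (-0.14), and without +/+ replicate 3, its highest value, the log2 fold change was -0.03. Med13 is described with the kinase module.

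The other 8 genes of the middle module, the part of the complex that holds Med9, had lower means in Dp(11)17/+ mice in 8 of 8. Of all genes, 58.3% were lower. The log2 fold changes of the 8 had a median of -0.10 and ran between -0.20 and -0.01. The signs of Med1, Med10 and Med31 turned under some alternatives given below. Med4 was not followed there by gene, and in Dp(11)17/+ replicate 2 it lay 0.15 above its +/+ mean. Med4, the partner of Med9, had log2 values of 6.49, 6.86 and 6.58 in Dp(11)17/+ mice, against 6.87, 6.77 and 6.50 in +/+ mice. The groups overlapped, and its log2 fold change was -0.07 (SE 0.14). Med21, which with Med7 makes the hinge, was at -0.08, and Med19, a link to the repressor REST in human cells, at -0.14. Med26, which recruits elongation factors in human cells, had 5.55, 5.58 and 5.55 in Dp(11)17/+ mice, against 5.59, 5.74 and 5.93 in +/+ mice, or -0.19 (SE 0.10). All its Dp(11)17/+ values lay below those of +/+ mice, by a narrow margin from +/+ replicate 1. Med10 had 8.51, 8.97 and 8.39 in Dp(11)17/+ mice, against 8.80, 8.80 and 8.88 in +/+ mice. Dp(11)17/+ replicate 2 was its highest mouse, and the log2 fold change of -0.20 (SE 0.15) was -0.38 without that mouse (unadjusted p = 0.00607, adjusted p = 0.600 by limma). It was -0.09 without Dp(11)17/+ replicate 3 and 0.02 with the regional marker score as a covariate.

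The 7 head genes also had lower means in 7 of 7, with small differences, a median of -0.02 and a range of -0.17 to -0.00. Of all genes, 58.3% were lower. In Dp(11)17/+ replicate 2, Med8 and Med18 lay 0.06 and 0.01 above their +/+ means, and the other head genes lay below theirs. Med8, Med18 and Med20, which form the movable jaw of the head in yeast, had log2 fold changes of -0.02, -0.02 and -0.11. Med17, the central head subunit, was at -0.13, Med22 at -0.17 and Med6, which joins head and middle, at -0.00. The backbone gene Med14 was at -0.03 (SE 0.10). Med14 and Med12 are X-linked. In Dp(11)17/+ replicate 1, the mouse with Xist, Med14 had 6.61 and Med12 5.84, within the ranges of 6.42 to 6.72 and 5.69 to 6.32 of the other 5 mice.

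The genes at the border of head and tail, Med27, Med28, Med29 and Med30, had lower means in 4 of 4, with a median of -0.12. Of all genes, 58.3% were lower. In Dp(11)17/+ replicate 2, Med27 and Med28 lay 0.09 and 0.07 above their +/+ means, and Med29 and Med30 lay below theirs. Med27 had the lowest log2 fold change of all 33 genes, -0.25 (SE 0.18). Its log2 values were 5.98, 6.32 and 5.65 in Dp(11)17/+ mice, against 6.13, 6.41 and 6.16 in +/+ mice. Dp(11)17/+ replicate 3 was lowest by a wide margin, and without it the log2 fold change was -0.08, while without Dp(11)17/+ replicate 2 it was -0.42. Of the 5 tail genes, the means of 3 were higher and of 2 lower, between -0.14 and 0.10. Med15 is a target of the lipid regulator SREBP in human and worm cells. It had 7.27, 7.37 and 7.27 in Dp(11)17/+ mice, against 7.24, 7.22 and 7.32 in +/+ mice, a log2 fold change of 0.04 with a 95% interval of -0.15 to 0.23. Srebf1, which encodes such a factor and lies in the segment, was at 0.63 in the same mice. Med23, which receives the growth-signal factor Elk1, was at -0.08, Med16 at 0.10 and Med25 at 0.06.

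The kinase module held the 3 highest log2 fold changes after that of Med9, none of them past the unadjusted threshold. Of its 7 genes, 4 had higher and 3 lower means, between -0.22 and 0.42. Cdk8, one of a pair of kinases that can each occupy the module, had log2 values of 7.13, 7.07 and 7.11 in Dp(11)17/+ mice, against 6.98, 6.99 and 6.95 in +/+ mice. The groups did not overlap and varied little, with SDs of 0.03 and 0.02 (n = 3 each). The log2 fold change was 0.13 (SE 0.07), or 1.10-fold, with an unadjusted p of 0.109 by limma. The plain equal-variance statistic, which uses the spread of this gene alone, gave an unadjusted p of 0.00291 and an adjusted p of 0.993. Cdk19, its paralog, had 7.78, 7.72 and 8.14 in Dp(11)17/+ mice, against 7.76, 7.58 and 7.50 in +/+ mice. Replicate 3 of Dp(11)17/+ was the highest mouse, and the log2 fold change of 0.26 (SE 0.13, unadjusted p = 0.0882 by limma) was 0.13 without it and 0.12 with the regional marker score as a covariate. In that mouse the striatal marker mean was also highest. The dimmer probe set of Cdk19 gave 0.16. Ccnc, the cyclin of both kinases, had 5.88, 5.54 and 6.02, against 5.93, 6.23 and 5.94 in +/+ mice. Its groups overlapped (log2 fold change -0.22, SE 0.15), with replicate 2 of Dp(11)17/+ the lowest mouse. With the regional marker score as a covariate it was at -0.43 (unadjusted p = 0.00721, adjusted p = 0.99999 by limma). Of its 5 probe sets, 4 had lower means, between -0.22 and -0.08, and 1 near the dim end of the arrays, with a mean of 2.95, gave 0.16.

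Med13l, which with its paralog Med13 encodes the link between kinase module and core, had the highest log2 fold change after Med9, 0.42 (SE 0.31). Its log2 values were 7.69, 7.62 and 7.57 in Dp(11)17/+ mice, against 7.68, 7.52 and 6.40 in +/+ replicates 1, 2 and 3. The difference came from +/+ replicate 3 alone, and without that mouse the log2 fold change was 0.02. A second probe set of Med13l gave 7.05, 7.06 and 7.10 in Dp(11)17/+ mice, against 6.93, 6.997 and 7.04 in +/+ mice, with no low value in that mouse. Its log2 fold change was 0.08 (SE 0.08). Med13 had 7.11, 7.38 and 7.27, against 7.36, 7.15 and 7.14 in +/+ mice (0.03, SE 0.11). For Med12, whose protein activates the kinase, the values were 5.84, 6.02 and 5.85, against 6.32, 5.69 and 6.02 in +/+ mice (-0.11, SE 0.16). Med12l, its paralog, had 6.80, 6.91 and 6.51, against 6.85, 6.74 and 6.65 in +/+ mice (-0.01, SE 0.12). All 3 genes overlapped between the genotypes, and the signs of each turned under some alternatives given below.

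**Figure D4:**
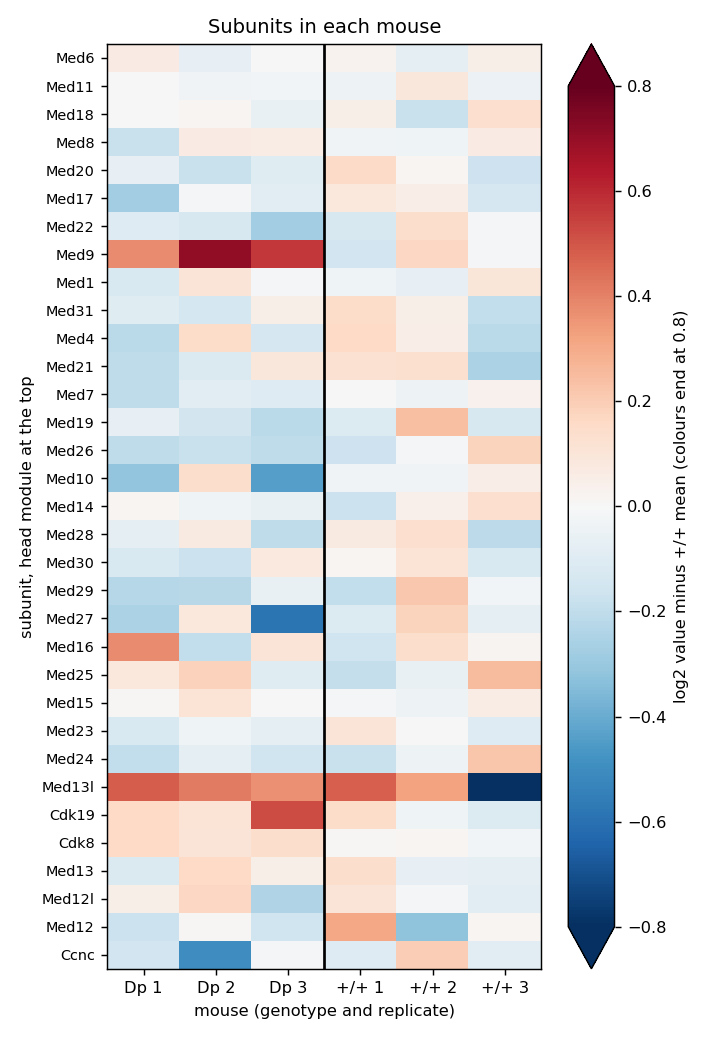
Log2 value minus the +/+ mean of each Mediator gene (rows, head module at the top and kinase module at the bottom) in each mouse (columns, Dp(11)17/+ left of +/+), red above and blue below, with colours ending at 0.8. Med9 is red in all 3 Dp(11)17/+ mice, at 0.38, 0.71 and 0.57, and Med13l is dark blue in +/+ replicate 3.

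Across the 32 genes other than Med9, the genotypes overlapped. The mean of these genes over their +/+ means was -0.06, -0.01 and -0.06 in Dp(11)17/+ replicates 1, 2 and 3, against 0.01, 0.03 and -0.05 in +/+ replicates 1, 2 and 3. The +/+ replicate 3 lay below Dp(11)17/+ replicate 2. The lowest value of a gene was found in Dp(11)17/+ replicate 1 for 10 of the 32 genes, in replicate 2 for 4 and in replicate 3 for 5. It was found in +/+ replicates 1, 2 and 3 for 2, 4 and 7. The mouse with the most lowest values was thus Dp(11)17/+ replicate 1, and that with the most highest values was +/+ replicate 2, with 9.

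The partners of Mediator at the promoter were set beside it through lists of genes of the transcription machinery. None of the 67 measured genes passed limma adjusted over all probe sets, and 3 had an unadjusted p under 0.05, against 3.17% of all genes. RNA polymerase II subunits, 10 of 12 measured, had lower means in 10 of 10. Their log2 fold changes lay between -0.27 and -0.05 with a median of -0.10, against a median of -0.02 and 58.3% lower over all genes. Polr2b, the second largest subunit, had 8.22, 8.26 and 8.38 in Dp(11)17/+ mice, against 8.42, 8.49 and 8.36 in +/+ mice (-0.14, SE 0.08). Polr2i was at -0.13. The groups overlapped for Polr2b, and with Dp(11)17/+ replicate 2 as the only Dp(11)17/+ mouse the median of the list was -0.05.

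General transcription factors, 17 of 18 measured, had lower means in 15, where 58.3% of all genes were lower. Their median was -0.07, or -0.01 with Dp(11)17/+ replicate 2 as the only Dp(11)17/+ mouse. Ercc3, a helicase of TFIIH, had 5.60, 5.63 and 5.50 in Dp(11)17/+ mice, against 5.70, 5.92 and 5.77 in +/+ mice (-0.22, SE 0.09, unadjusted p = 0.0428 by limma). Tbp, the TATA-binding protein, was at -0.17 (unadjusted p = 0.0640 by limma). Ercc3 and Tbp were among 5 of the 17 with all Dp(11)17/+ mice below all +/+ mice, against 5.59% of all genes. Of the TAF subunits of TFIID, 12 of 13 measured, 7 had higher and 5 lower means, with a median of 0.03. Taf12 had 5.69, 5.53 and 5.56 in Dp(11)17/+ mice, against 5.86, 5.94 and 5.86 in +/+ mice (-0.30, SE 0.08, unadjusted p = 0.00831 by limma), and Taf5 was at -0.32 (unadjusted p = 0.0240). Those 2 and Ercc3 were the genes under the unadjusted threshold, all with lower means. All 3 were dim, with a mean below 6 over the arrays (Taf12 5.74, Taf5 4.50, Ercc3 5.69), which limits what their values can show.

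Elongation factors that work with Mediator, 18 of 20 measured, had higher means in 7 and lower means in 11, with a median of -0.08. Mllt3, of the super elongation complex, was at -0.30 (unadjusted p = 0.0644 by limma), and Hexim1, an inhibitor of the elongation kinase, at -0.17 (unadjusted p = 0.103). Cohesin and its loader, which hold enhancer and promoter loops, were split 5 and 5 over 10 genes, with a median of 0.01, Pds5b at -0.31 and Smc1a at -0.10.

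**Figure D5:**
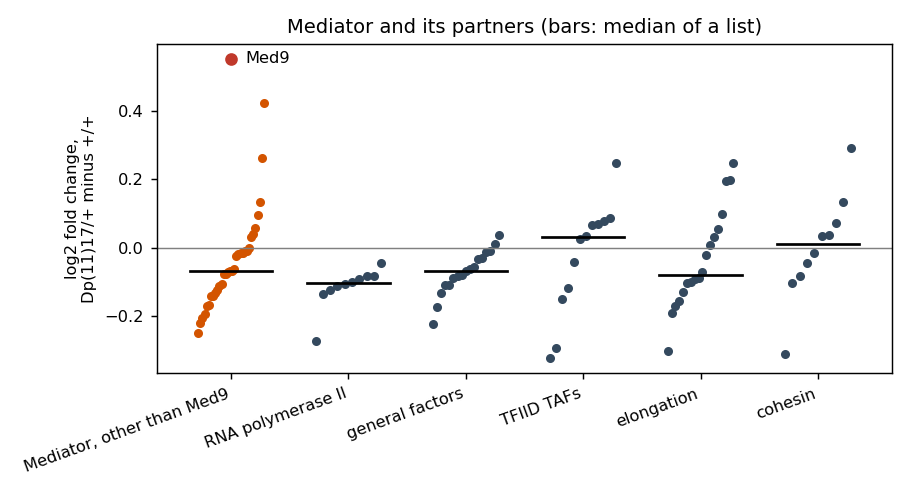
Log2 fold change, Dp(11)17/+ minus +/+, of the 32 Mediator genes other than Med9 (orange), of Med9 (red) and of 5 lists of transcription genes (dark), each point a gene and each bar the median of its list. Med9 at 0.55 lies above all of them, and the 10 RNA polymerase II subunits lie between -0.27 and -0.05.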

How the data were processed

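The authors deposited log2 values per probe set made with RMA, per the submitters' processing notes. RMA corrects background, quantile-normalizes the arrays and summarises probes, so shifts shared by most genes are removed. The sources used here do not give its version or settings. Values ran between 2.14 and 13.1 and were used unchanged.

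The 64 control probe sets were left out. Of 45037 tested, 34945 had 1 gene symbol, 932 several and 9160 none. Entrez identifiers matched 34741 to the GRCm38.p6 gene table, used for names and gene order. Genotypes were compared with limma 3.58.1 in R 4.3.3 (lmFit, eBayes without trend, two-sided, Benjamini-Hochberg over all probe sets, threshold 0.05). The fit was tested on simulated data with independent noise for each probe set. These held no differences in tissue makeup between mice, so they cannot show how such differences affect it. Nothing in the labels pairs mice, names batches or gives littermates. Replicates were numbered in record order. Members, lists and tests were chosen with earlier results of these data known. Named were Med9, members under an unadjusted 0.05, the kinase module, members on chromosome 11, the 3 highest and 3 lowest log2 fold changes, members whose probe sets disagreed in sign with 1 under 0.05 (0 found), and 2 genes per list. Others were named for their roles after their values were seen, to describe the modules. With 3 arrays per group, their number limits the precision. Alternatives changed filters, scalings, priors, weights, probe sets and mice.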

Additional observations from a re-analysis of the deposited data

How the results depend on the processing

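Under 18 alternatives Med9 kept its direction, with log2 fold changes of 0.42 to 0.71 and unadjusted p of 0.00178 to 0.0146 where a test was made. Without 1 mouse it lay between 0.47 and 0.64, and its adjusted p between 0.639 and 0.99999 over the alternatives. The count of members with higher means, 8 of 33, was 13 with cyclic loess, 16 with Dp(11)17/+ replicate 2 as the only duplication mouse and 15 with the regional score as covariate, and 7 to 13 without 1 mouse. The median of the other members, -0.07, was -0.0175 with that only mouse and -0.0238 with the covariate, and -0.10 to -0.03 without 1 mouse. The count under an unadjusted 0.05, 1, was 3 by the plain equal-variance statistic (Med7 and Cdk8 beside Med9), 2 with the covariate (Ccnc) and 1 to 3 without 1 mouse (3 without Dp(11)17/+ replicate 2, with Med10 and Med27, and 2 without +/+ replicate 1, with Med26). Over all probe sets 0 passed, against 1, of Xaf1, with an intensity trend and robust prior and 1 with array weights, and 0 to 0 without 1 mouse.

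Signs were followed by gene only for Med9, the kinase module, the members on chromosome 11, Med27 and Med10. Among these, they turned for members near 0 and also for Med27, Ccnc and Med10, which had the lowest log2 fold changes. The cause was not tested. With cyclic loess Med12l was at 0.0114 and Med1 at 0.0102. With array weights Med13 was at -0.0295. With all probe sets of a gene averaged Med1 was at 0.0838, and with the probe set of largest interquartile range Med13 was at -0.0929, Ccnc at 0.16 and Med1 at 0.0617. With Dp(11)17/+ replicate 2 as the only duplication mouse Med12 was at 0.0106, Med12l at 0.16, Med1 at 0.10, Med27 at 0.0872 and Med10 at 0.14. With the covariate Med12 was at 4.08e-06, Med12l at 0.13, Med1 at 0.0524 and Med10 at 0.0200. Without 1 mouse the ranges were -0.0686 to 0.0432 for Med1, -0.0334 to 0.10 for Med13, -0.10 to 0.11 for Med12l, -0.27 to 0.0463 for Med12, -0.16 to 0.00999 for Med31 and -0.0389 to 0.0278 for Med11.

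No paired analysis was possible because nothing in the labels pairs the mice. With 3 mice against 3, an exact permutation test cannot go below p = 0.1, litter and cohort cannot be told apart from genotype, and changes of transcript levels shared by most genes would be removed by RMA. Med6, Med11, Med12, Med18, Med26, Med29 and Ccnc were dim, with a mean below 6, which limits what their values can show. Medians of the partner lists were recomputed under the same alternatives, added after the data were seen. That of the TAF subunits, 0.03, turned to -0.0418 with probe sets of at least 6, -0.0317 with the only mouse, -0.0292 with the covariate, -0.0287 without +/+ replicate 3 and -0.0141 without Dp(11)17/+ replicate 3. That of cohesin, 0.01, ran between -0.0652 and 0.0758, and that of elongation factors, -0.08, reached -0.0243.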

Other observations

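Low values in +/+ replicate 3 touched 2 probe sets of Mediator genes, picked out after their values were seen. Of 40 member probe sets with a mean of 5 or more, the brighter of Med13l and the second of Med1 lay at least 0.8 below all other mice in that mouse, by 1.12 and 1.02 on the log2 scale. The second probe set of Med1 had log2 values of 6.03, 5.73 and 5.85 in Dp(11)17/+ mice, against 5.89, 5.77 and 4.71 in +/+ replicates 1, 2 and 3, and its log2 fold change of 0.41 (SE 0.30) was unlike the -0.01 of the brightest one. Such low values were met in 211 of 15487 probe sets in +/+ replicate 3, against 3, 35 and 111 in Dp(11)17/+ replicates 1, 2 and 3 and 0 and 10 in the other +/+ mice. Probe sets far above all other mice numbered 96 in Dp(11)17/+ replicate 3 and 1 to 9 in each of the others. The cause was not tested.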
